A study of Homo sapiens with 2 samples.

Results

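The proteasome is the large protease that degrades proteins marked with ubiquitin, and its constitutive subunit genes are described here in WaGa, an established line of human Merkel cell carcinoma, a neuroendocrine skin cancer. The genes were chosen by name: PSMA, PSMB, PSMC or PSMD followed by a number, without the inducible or thymic subunits PSMB8, PSMB9, PSMB10 and PSMB11, and with at least 50 unique molecular identifiers (UMIs, each standing for 1 captured transcript) over both libraries. This gave 34 of the 32742 genes in the table, 14 of the core particle and 20 of the regulatory particle. There were 2 single-cell libraries, each 1 sample: WaGa cells that received no treatment, and WaGa cells treated with domatinostat, an inhibitor of histone deacetylases (HDACs). The cells of both groups were kept in RPMI medium, and dose, duration and solvent were not given in the labels. Cells were assigned by the treatment word in their names, so the libraries are called labelled untreated and labelled treated. Wherever 2 values stand together, the first is from the library labelled untreated and the second from the library labelled treated, and a ratio is the second over the first.

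Of 44 names that begin in the required way, the 4 inducible or thymic subunits stayed out, as did PSMC3IP, which encodes a recombination factor, and the antisense transcripts PSMD5-AS1 and PSMD6-AS2. PSMA8, the testis form of an alpha subunit, and the rows PSMA2 and PSMA1.1 had 0 UMIs in both libraries. The row PSMA2.1 held UMIs and was read as the gene PSMA2 from its name alone, since the table pairs no gene identifier with it; it is given under its row name. The member with the fewest UMIs was PSMD5, with 925 and 1180, so no member lay near the minimum of 50.

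The core particle is a barrel of stacked rings. The outer alpha rings, built from PSMA subunits, form its gate, and the inner beta rings, built from PSMB subunits, hold the cutting sites, of which PSMB5, PSMB6 and PSMB7 carry the chymotrypsin-like, caspase-like and trypsin-like activity. The regulatory particle caps the barrel: its base holds a ring of PSMC ATPases that unfold the substrate, and its lid of PSMD subunits holds PSMD14, which removes the ubiquitin chain. Proliferating cells need the proteasome to destroy cyclins and other cell cycle regulators.

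The table held 4137 and 6679 cells, with 45562976 and 60160108 UMIs. The median cell held 11125 and 8578 UMIs, and mitochondrially encoded transcripts took 5.09% and 4.74% of UMIs. The libraries shared 48 cell barcodes. Of 10 Merkel cell carcinoma markers, 9 had at least 50 UMIs, led by CHGA, whereas NEUROD1 was near 0 with 0.417 and 0.116 CPM (UMIs per 1000000 UMIs of the library). Markers of other cell types summed to at most 29.3 CPM per type in either library, apart from keratinocyte markers, whose 315.1 and 316.0 CPM were almost all KRT10, and CD3D, CD2, MS4A1, FCGR3A, TYR and HBB were at 0. CDKN1A, a gene that HDAC inhibitors are known to induce, had 97.9 and 39.4 CPM, a ratio of 0.403 (0.383 to 0.423), so every direction below rests on the words in the cell names. With 1 library a group there was no test between conditions. Each interval is a 95% interval for counting error and does not cover the spread between cultures.

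The region before a gene's start is where factors known to act on proteasome genes bind, so it was searched for short motifs in RefSeq windows of build GRCh38.p14, from 250 bases before to 50 bases after the start. Of the 34 members, 29 matched, with 35 windows, and PSMA7, PSMB1, PSMB6, PSMB7 and PSMD4 were not matched. The antioxidant response core TGACNNNGC, the core of the element bound by NFE2L1 and NFE2L2, was found on either strand in 9 of 35 member windows (25.7%) and in 13.3% of 35116 windows of all genes. The ETS core CCGGAAGT was found in 7 of 35 (20%) and in 4.14%. CCAAT was found in 45.7% and 34.6%, and TATAAA in 11.4% and 11.5%. The motifs were searched separately, and the letters of 2 motifs may share bases. The 4 members with an antioxidant response core that lay before the start and outside every exon of GENCODE 29 are shown 5′ to 3′ on the gene's strand, with the motif in capitals. They are PSMD9 (chr12:121888611-121888726, plus strand), PSMB3 (chr17:38752607-38752675, plus strand), PSMD3 (chr17:39980740-39980796, plus strand) and PSMD12 (chr17:67366704-67366772, minus strand), and PSMD9 holds the motif at 2 places, once on each strand. The other hits are not shown. Those in PSMD5, PSMA4 and PSMC5 overlapped annotated exons, and those in PSMD1 and PSMC4 and at a further place in PSMD3 lay past the start.
PSMD9: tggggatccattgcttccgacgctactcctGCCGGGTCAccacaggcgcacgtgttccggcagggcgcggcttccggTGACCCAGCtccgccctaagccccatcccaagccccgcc
PSMB3: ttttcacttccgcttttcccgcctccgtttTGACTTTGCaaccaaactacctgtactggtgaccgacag
PSMD3: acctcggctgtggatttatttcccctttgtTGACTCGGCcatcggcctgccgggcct
PSMD12: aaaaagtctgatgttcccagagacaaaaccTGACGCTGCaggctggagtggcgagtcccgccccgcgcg

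The ETS core was the motif with the largest excess over all windows of the 4 searched. Its letters hold CG, and the median member window held 21 CG pairs, beside 14 in all windows. Whether the excess goes with this was not tested. Each ETS site in a member window is shown with 8 bases on either side and the motif in capitals. Unlike the stretches above, each of these 7 sites overlaps an annotated exon or reaches past the start. The sites were in PSMD14 (chr2:161308413-161308436, plus strand), PSMC2 (chr7:103347611-103347634, plus strand), PSMD13 (chr11:236956-236979, plus strand), PSMA6 (chr14:35292390-35292413, plus strand), PSMC1 (chr14:90256554-90256577, plus strand), PSMD12 (chr17:67366571-67366594, minus strand) and PSMD8 (chr19:38374545-38374568, plus strand). Every site began between 24 bases before and 16 bases after a start.
PSMD14: tagtgaacCCGGAAGTgcttcgcg
PSMC2: cccaatttACTTCCGGtggggaag
PSMD13: gctcggcgCCGGAAGTgagtgagc
PSMA6: tcgctgcaACTTCCGGgaggtgct
PSMC1: gtggaggaACTTCCGGcagcggca
PSMD12: cgcgggcaACTTCCGGtgtgggtg
PSMD8: aaaagccaACTTCCGGtcaccatc

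The first comparison asked whether the level of subunit transcripts differed with treatment. Summed over the 34 genes, they made up 0.903% and 0.892% of UMIs, a ratio of 0.987 (0.983 to 0.991). The ratio was above 1 for 17 members and below 1 for 17, beside 47.4% above 1 of the 13958 genes with at least 50 UMIs, and ran from 0.870 for PSMD4 to 1.36 for PSMD9. None of the 34 was at least 1.2-fold lower, where 28% of those genes were, and 3 were at least 1.2-fold higher, where 17.8% of all genes were. Among the 5367 genes at or above the mean level of PSMD5, the lowest member, 13.5% were at least 1.2-fold lower and 15.5% higher, and 55% had a ratio above 1. No member was 1.5-fold lower or higher, beside 14.9% and 3.77% of all genes and 3.43% and 1.47% of genes at that level. The intervals lay wholly above 1 for 14 members and wholly below 1 for 14, beside 28.5% and 34.7% of all genes and 41.8% and 34.2% of genes at that level. The median log2 ratio of the members was -0.0023, and the middle 50% of all genes ran from -0.31 to 0.19.

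**Figure D1:**
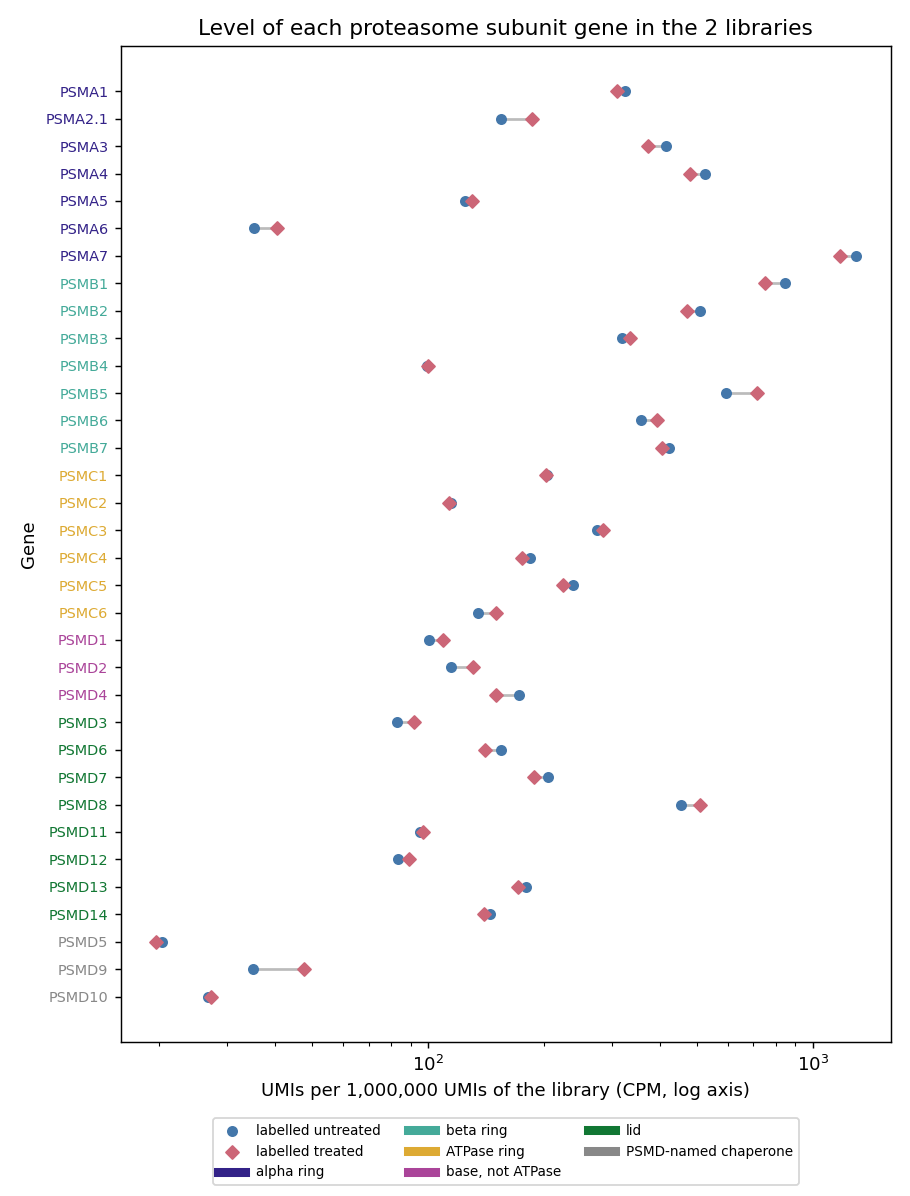
UMIs per 1,000,000 UMIs (CPM, log axis) of each of the 34 subunit genes, with a circle for the library labelled untreated and a diamond for the library labelled treated; the colour of the gene name gives its place in the complex. The libraries lie close together for each gene, while genes differ from 20.3 CPM for PSMD5 to 1289 CPM for PSMA7 in the library labelled untreated.

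Among the alpha subunits, the 4 most abundant were lower in the library labelled treated and the other 3 higher. PSMA7 had 1289 and 1175 CPM, a ratio of 0.912 (0.902 to 0.922). PSMA4 had 524.8 and 477.4 CPM, PSMA3 414.5 and 373.0 CPM, and PSMA1 324.1 and 308.6 CPM, with ratios of 0.910, 0.900 and 0.952. All 4 intervals lay below 1. PSMA2.1 had 154.5 and 185.7 CPM, a ratio of 1.202 (1.17 to 1.24). PSMA6 had 35.3 and 40.4 CPM, a ratio of 1.15 (1.08 to 1.22), and PSMA5 had 124.4 and 129.7 CPM, a ratio of 1.04 (1.01 to 1.08). PSMA7 alone gave 45.0% and 43.7% of the alpha UMIs. The alpha sum, led by the 4 genes that were lower, had a ratio of 0.938 (0.932 to 0.945).

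The beta subunits went both ways, and their sum had a ratio of 1.01 (0.999 to 1.01), whose interval held 1. PSMB5, the chymotrypsin-like subunit and the target of clinical proteasome inhibitors, had 594.3 and 713.6 CPM, a ratio of 1.201 (1.18 to 1.22). PSMB6, the caspase-like subunit, had 356.4 and 393.6 CPM, a ratio of 1.105 (1.08 to 1.13), whereas PSMB7, the trypsin-like subunit, had 423.5 and 405.7 CPM, a ratio of 0.958 (0.940 to 0.976). The 3 catalytic subunits thus did not share a direction. PSMB1, the most abundant beta gene, had 847.8 and 749.0 CPM, a ratio of 0.883 (0.871 to 0.896), the lowest of the core particle. The structural subunits PSMB2, PSMB3 and PSMB4 had ratios of 0.924, 1.05 and 1.01, and the interval of PSMB4 (0.967 to 1.05) held 1.

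Each catalytic subunit has an inducible counterpart that can take its place in the immunoproteasome, and these were scarce in both libraries. PSMB8, the counterpart of PSMB5, had 65 and 20 UMIs, or 0.239% (0.185% to 0.305%) and 0.0466% (0.0284% to 0.0719%) of the UMIs of that pair, a ratio between CPM values of 0.233 (0.134 to 0.390). PSMB9, the counterpart of PSMB6, had 2 UMIs and 1 UMI. PSMB10, the counterpart of PSMB7, had 204 and 294 UMIs, 1.05% and 1.19% of its pair, with a ratio between CPM values of 1.09 (0.910 to 1.31). The constitutive gene thus held nearly all UMIs of its pair in each library, and PSMB5 with PSMB8 was the pair whose intervals did not overlap between libraries. That contrast rests on the 65 and 20 UMIs of PSMB8. Among the 13958 genes that met the UMI minimum, a drop of 1.5-fold or more in the library labelled treated was seen for 14.9%. Whether the lower level of PSMB8 is particular to it was not tested.

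The ATPases of the base spanned the narrowest range of ratios of the groups, 0.941 to 1.11, with a summed ratio of 1.00 (0.989 to 1.01). PSMC1, PSMC2, PSMC3, PSMC4 and PSMC5 had ratios of 0.991, 0.986, 1.04, 0.953 and 0.941. PSMC6, which had 134.9 and 150.1 CPM, was the highest at 1.11 (1.08 to 1.15). In the library labelled untreated the ring ran from 114.5 CPM for PSMC2 to 273.9 for PSMC3, a 2.39-fold span, while the alpha ring spanned 36.6-fold and the lid 5.49-fold. The assay counts 1 end of each transcript, so these levels were not divided by length, and genes may differ in how well that end is captured.

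The other base subunits did not share a direction. PSMD4, a receptor for ubiquitin chains, had 172.3 and 149.8 CPM, a ratio of 0.870 (0.844 to 0.897). PSMD1 and PSMD2, the large scaffold subunits, had ratios of 1.08 (1.04 to 1.13) and 1.14 (1.105 to 1.19), with PSMD2 at 114.5 and 131.0 CPM. PSMD4 was thus the lowest of all 34 members, while both scaffold genes were above 1.

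In the lid, 4 of 8 genes were above 1 and 4 below. PSMD8, its most abundant gene, had 455.0 and 508.8 CPM, a ratio of 1.12 (1.099 to 1.14), and PSMD3 had 82.9 and 91.9 CPM, a ratio of 1.11. PSMD6 and PSMD7 had ratios of 0.906 and 0.918, with PSMD6 at 154.6 and 140.1 CPM. PSMD14, the deubiquitinase, had 144.3 and 139.7 CPM, and PSMD13 had a ratio of 0.955. PSMD11 and PSMD12 had ratios of 1.02 (0.978 to 1.06) and 1.06. The lid sum had a ratio of 1.02 (1.01 to 1.03).

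PSMD5, PSMD9 and PSMD10 carry subunit names but encode chaperones that help the ATPase ring assemble and leave before the complex is finished. PSMD9 had 35.0 and 47.5 CPM, a ratio of 1.36 (1.28 to 1.45), at percentile 92.6 of the genes with at least 50 UMIs. PSMD5 and PSMD10 had ratios of 0.966 (0.886 to 1.05) and 1.02 (0.944 to 1.096), and both intervals held 1. PSMD9 was thus the single chaperone gene of this kind with an interval away from 1. PSMD5-AS1, the antisense neighbour of PSMD5, had its own row with 35.5 and 32.7 CPM. Whether reads were counted by strand was not stated, so it is not known whether any were counted for the wrong gene.

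**Figure D2:**
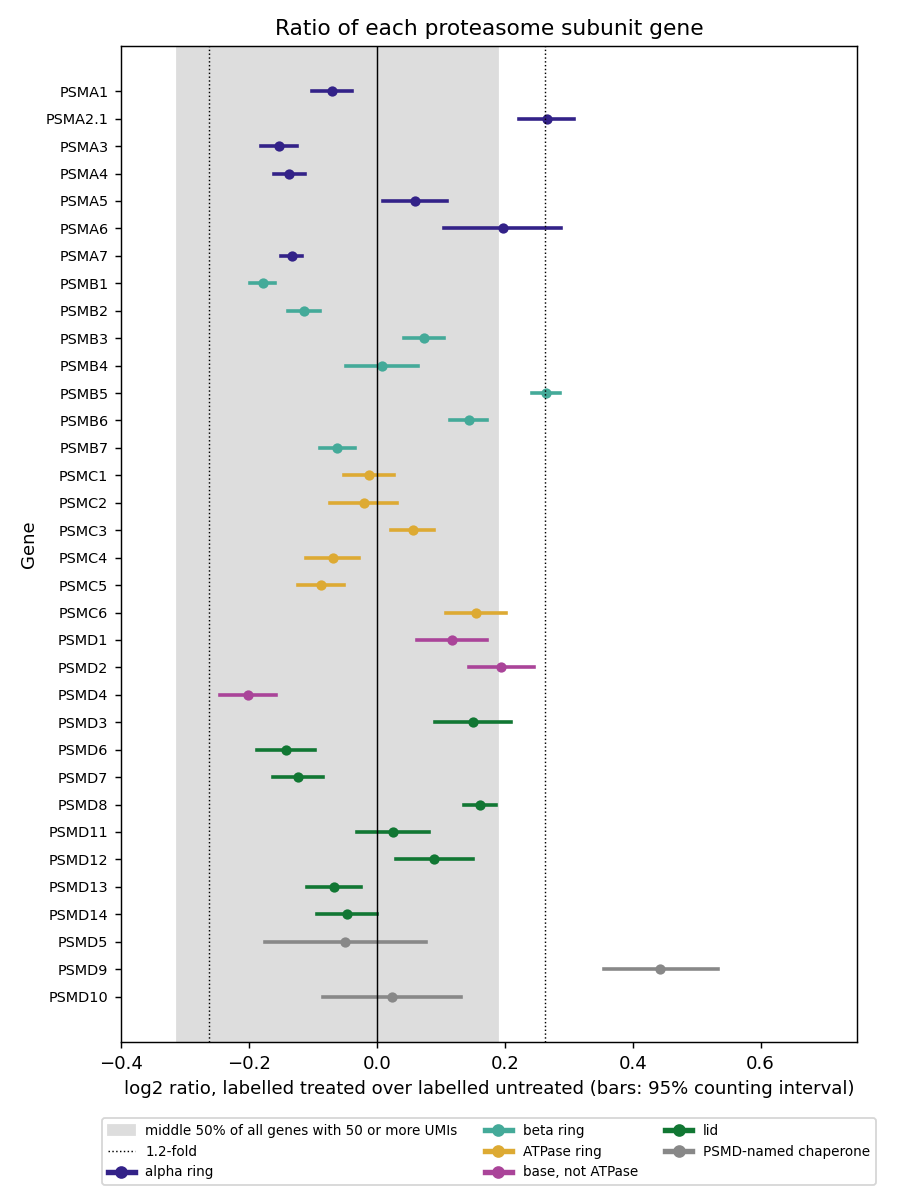
log2 ratio of CPM, labelled treated over labelled untreated, for each subunit gene, with bars for the 95% counting interval, dotted lines at 1.2-fold and a grey band for the middle 50% of all genes with at least 50 UMIs. PSMD9 at 1.36 lies outside the dotted lines, PSMA2.1 and PSMB5 lie on the upper line at 1.202 and 1.201, and no gene reaches the lower line.

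The second comparison set the core particle against the regulatory particle. Core transcripts summed to 6015 and 5856 CPM, a ratio of 0.974 (0.969 to 0.979). Regulatory transcripts summed to 3018 and 3059 CPM, a ratio of 1.01 (1.01 to 1.02). There were 1.99 and 1.91 core UMIs for each regulatory UMI, a quotient between libraries of 0.961 (0.952 to 0.969). That small difference changed with the genes summed. Without PSMA7 and PSMD8, the most abundant gene of each particle, the same quotient was 0.996 and the regulatory ratio was 0.995, below 1. Those 2 genes were picked after seeing the data, and their ratios, 0.912 and 1.12, lay in the direction of the difference. Without PSMD5, PSMD9 and PSMD10 the quotient was 0.964. Gene by gene, the median log2 ratio was -0.03 over the 14 core members and 0.01 over the 20 regulatory members, against -0.02 over all genes with at least 50 UMIs.

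The share of cells in which a gene was seen was compared after thinning each cell to 4351 UMIs, which kept 3892 and 6012 cells and left out 245 and 667. The share was higher in the library labelled treated for 21 members and lower for 13, with a median difference of 0.405 percentage points. Of genes at or above the level of PSMD5, 57.5% were higher and 42.5% lower, with a median difference of 0.435 points, so the members lay near that background. PSMB5 was seen in 90.5% and 95.04% of cells, and PSMA2.1 in 47.9% and 54.8%. PSMD9 was seen in 13.7% and 18.8%, and PSMD4 in 51.5% and 48.1%. Unthinned, the values were 97.4% and 97.5% for PSMB5, 76.4% and 75.2% for PSMA2.1, 31.2% and 33.3% for PSMD9, and 79.5% and 69.2% for PSMD4. At their own depth only 2 members had a higher share in the shallower library labelled treated, PSMB5 and PSMD9, beside 19% of genes at that level. With 1 cell line, no cell type that lacks the genes was at hand to gauge free RNA.

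The third comparison asked whether the levels varied with the cell cycle, by phases called from S and G2/M transcript lists that hold no member. Cells called S made up 56.7% and 47.9% of these cells, cells called G2/M 33.8% and 46.2%, and cells called G1 9.48% and 5.87%. In the library labelled untreated the summed core level was nearly level across phases, at 5959, 6028 and 6018 CPM in cells called G1, S and G2/M, and the regulatory level was 2970, 2969 and 3105 CPM. In the library labelled treated both were lowest in cells called G2/M: the core had 6301, 6214 and 5553 CPM, and the regulatory particle 3219, 3275 and 2893 CPM.

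**Figure D3:**
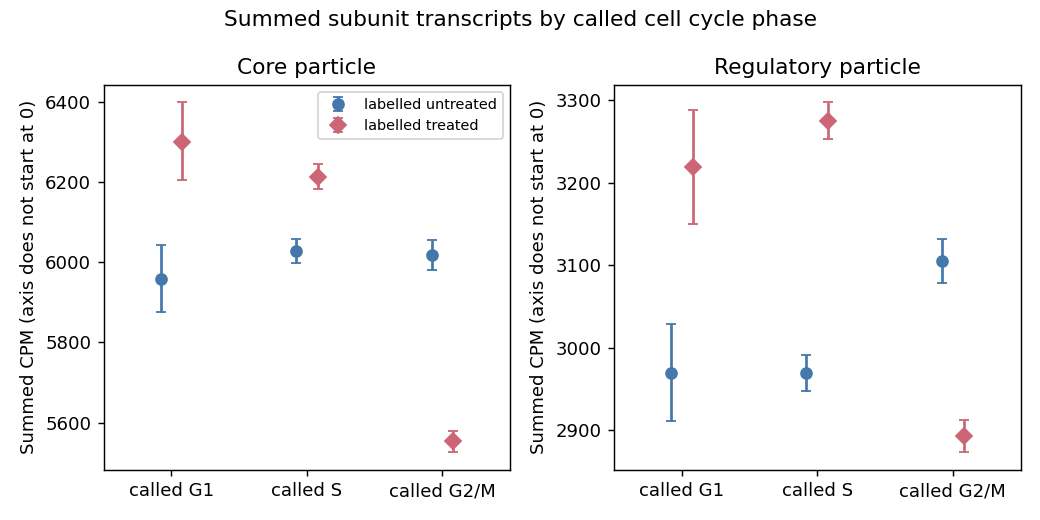
Summed CPM of the 14 core and 20 regulatory genes in cells called G1, S or G2/M, with bars for the 95% counting interval; circles are the library labelled untreated, diamonds the library labelled treated, and the vertical axes do not start at 0. The treated library lies above the untreated one in cells called G1 and S, and below it in cells called G2/M.

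The direction between libraries therefore turned with the phase. In cells called S the ratio was 1.03 (1.02 to 1.04) for the core and 1.103 (1.09 to 1.11) for the regulatory particle, and in cells called G1 it was 1.06 and 1.08. In cells called G2/M it was 0.923 (0.916 to 0.930) and 0.932 (0.922 to 0.942). Of the 34 members, 28 were above 1 in cells called G1, 27 in S and 11 in G2/M, beside 55.2%, 59% and 50.3% of genes at or above the level of PSMD5. The median log2 ratio of the members was 0.12, 0.11 and -0.12, beside 0.04, 0.06 and 0.0018 for those genes. In cells called G2/M 9 of 34 members were at least 1.2-fold lower, beside 18.8% of genes at that level and 27.9% of all genes. The count lay near the share of all genes and above that of genes at that level, a difference that was not tested. In the same cells 1 member was at least 1.2-fold higher, beside 19% and 21.1%. In cells called G1 and S 7 members each were at least 1.2-fold higher, beside 22.7% and 18.6% of genes at that level and 23.9% and 20.3% of all genes, and 0 were lower, beside 18.6% and 12.6% and, of all genes, 23.4% and 25%. The counts of higher members were thus near the background. Median depth moved with phase and library: cells called G2/M had 13551 and 10384.5 UMIs, and cells called S 11005 and 8503. Its part in these differences was not tested.

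Single genes differed in how far they took part. PSMA4 had 452.2 CPM in cells called S and 639.7 in cells called G2/M of the library labelled untreated, a quotient of 1.41, but 471.2 and 489.1 CPM, a quotient of 1.04, in the library labelled treated. Its ratio between libraries was 1.04 in cells called S and 0.765 (0.746 to 0.784) in cells called G2/M. PSMD6 turned in the same way, with a ratio of 1.09 in S and 0.737 (0.702 to 0.774) in G2/M, from 172.9 to 127.4 CPM. PSMD11 had 1.19 and 0.830, and PSMD7 had 1.03 and 0.796. PSMB6 had 1.23 and 0.970. The genes with the highest ratios over all cells stayed above 1 in each phase. Since they were picked on these same cells, that was partly fixed by the choice. PSMD9 had 1.35, 1.35 and 1.30 in cells called G1, S and G2/M. PSMB5 had 1.38, 1.26 and 1.14, and PSMA2.1 had 1.28, 1.24 and 1.19. In all, 10 members were above 1 in all 3 phases and 4 below 1 in all 3, beside 32.1% and 24.1% of genes at or above the level of PSMD5.

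**Figure D4:**
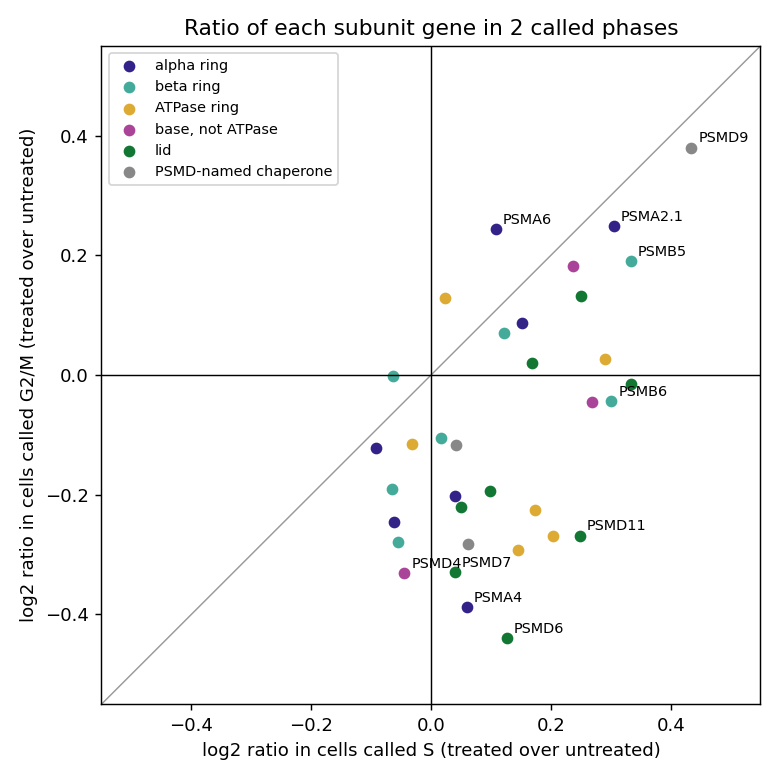
log2 ratio of CPM, labelled treated over labelled untreated, in cells called S (horizontal) and in cells called G2/M (vertical), 1 point per subunit gene, coloured by its place in the complex, with a grey line where both are equal. Most points lie under the line, PSMD6 and PSMA4 lie lowest at ratios of 0.737 and 0.765 in cells called G2/M, and PSMD9 lies at the upper right.

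Within a library, the quotient of the level in cells called G2/M to that in cells called S was above 1 for 22 of 34 members in the library labelled untreated, where 50.8% of genes at or above the level of PSMD5 were, and for 8 of 34 in the library labelled treated, where 43.4% were. The median quotient of the members was 1.02 and 0.908, beside 1.01 and 0.969 for those genes. PSMD10 had the highest quotient in both libraries, 1.65 and 1.48, and PSMA5 the lowest, 0.773 and 0.739. PSMD9, with 1.30 and 1.25, and PSMA7, with 0.854 and 0.836, also kept their side in both libraries.

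Depth gave a further split of the cells. The cells of each library were cut by UMIs into 3 groups of equal number. The groups were thus not matched in depth between libraries. Median UMIs were 6400 and 5341 in the shallowest, 11125 and 8579 in the middle, and 15147 and 12360 in the deepest. The core ratio was 0.974 in the shallowest group, 1.02 in the middle and 0.946 in the deepest, and the regulatory ratio was 1.00, 1.09 and 0.971. PSMD9, PSMB5 and PSMA2.1 were above 1 in each group, with PSMD9 at 1.43, 1.37 and 1.33. PSMB1, PSMD4 and PSMA3 were below 1 in each. These genes had the highest and lowest ratios over all cells, so this too was partly fixed by the choice. In all, 13 members were above 1 in each group and 8 below 1 in each, beside 39.9% and 30.9% of genes at or above the level of PSMD5, and so near the background.

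At 4351 UMIs a cell, the 34 genes together gave a median of 39 UMIs in both libraries, with 5% of cells at or under 22 and 23 UMIs, and 95% at or under 54 in both. No cell had 0 subunit UMIs. The variance was 2.32 and 2.30 times the mean, where counting alone gives about 1, and the variation beyond counting had a coefficient of 0.184 and 0.182. The CCT chaperonin, another large ring complex of housekeeping type, had coefficients of 0.295 and 0.259, and the COP9 signalosome, a complex built like the lid, 0.198 and 0.165. At this depth the members thus lay below the first complex in both libraries, and below the second in 1 library and above it in the other. With cells thinned to 8578 UMIs, the members had 0.176 and 0.169. The CCT chaperonin was again higher, with 0.296 and 0.259, but the COP9 signalosome was lower in both libraries, with 0.162 and 0.133. The order of members and signalosome thus changed with depth, and the sums held 34, 8 and 9 genes. Across cells at 4351 UMIs, core and regulatory sums had a Pearson correlation of 0.346 over 3892 cells and 0.361 over 6012 cells, where cells share library and depth. The sum of all members and that of the CCT chaperonin had a correlation of 0.463 and 0.432, so a correlation between such sums is not particular to the proteasome. Counting noise lowers these correlations by unlike amounts and was not removed, so which pair is more closely tied cannot be told. Over the 561 pairs of members the median correlation was 0.029 and 0.028, which in counts this sparse is no finding.

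**Figure D5:**
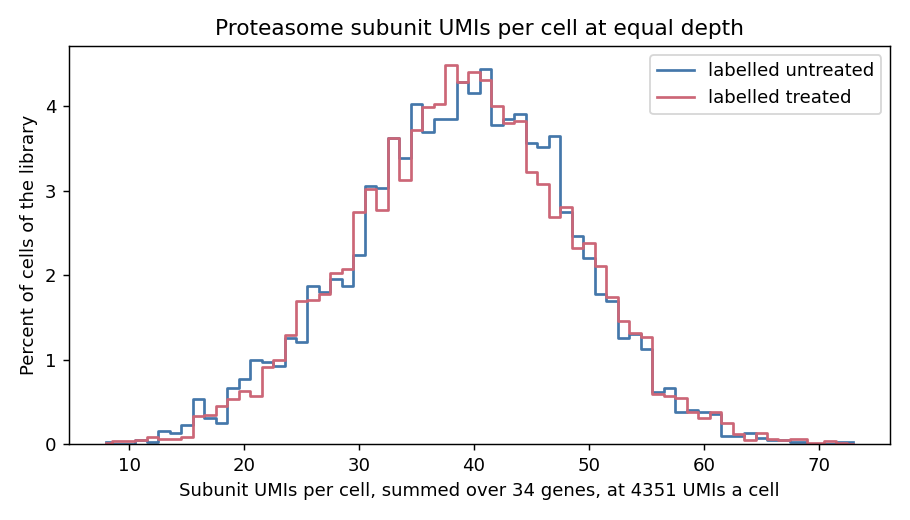
Percent of cells (vertical) by the number of subunit UMIs summed over the 34 genes (horizontal), after thinning each cell to 4351 UMIs, for the library labelled untreated (blue) and labelled treated (red). The 2 curves lie over each other, with a median of 39 UMIs in both.

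Other genes of the pathway were described from fixed lists, with the counts at 1.2-fold to be read against the 28% lower and 17.8% higher of all genes. Of 5 genes for activators or the inhibitor of the core particle, 1 was at least 1.2-fold higher and 0 lower. That gene was PSME4, whose product caps the core particle and is known to promote degradation of acetylated histones, with 13.7 and 19.6 CPM, a ratio of 1.43 (1.30 to 1.58). PSMF1, the inhibitor, had a ratio of 1.14, and PSME1 and PSME2, the subunits of the interferon-inducible cap, had 0.956 and 0.909. None of the 5 core assembly chaperones passed 1.2-fold either way, from POMP at 0.904 (0.888 to 0.921) to PSMG4 at 1.13 (1.08 to 1.17).

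Of 8 further subunits and partners of the regulatory particle, 1 was at least 1.2-fold higher and 0 lower. KIAA0368, which encodes a proteasome adaptor, had 4.21 and 5.60 CPM and a ratio of 1.33 (1.11 to 1.60), the ubiquitin receptor gene ADRM1 a ratio of 1.15, and PAAF1 a ratio of 0.875. NFE2L1, the factor that raises proteasome gene transcription when proteasomes fail, had 12.3 CPM in both libraries and a ratio of 1.00 (0.898 to 1.12). DDI2, the protease that activates it, had a ratio of 1.18 (1.00 to 1.38), and NFE2L2, the factor of the oxidative stress response, 0.820 (0.773 to 0.869). The 4 ubiquitin genes ran from 0.937 for UBB to 1.11 for RPS27A, with 0 past 1.2-fold.

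Upstream of the proteasome, 2 of 24 ubiquitin activating and conjugating enzyme genes were at least 1.2-fold higher and 2 lower. UBE2V1 had the highest ratio at 1.47 (1.34 to 1.62) and UBE2C, which serves mitotic cyclin destruction, 1.22 (1.199 to 1.24), while UBE2H and UBE2E1 had 0.611 and 0.644. UBE2C is in the G2/M list used to call phases, and cells called G2/M made up 33.8% and 46.2%. Whether its ratio goes with that was not tested. Of 8 genes of the unfoldase VCP and its cofactors, UFD1L was the only one past it, at 0.818, and VCP itself had the highest ratio at 1.17 (1.13 to 1.22). The COP9 signalosome had 1 of 9 genes at least 1.2-fold lower, COPS6 at 0.833, and a median log2 ratio of -0.05. The CCT chaperonin had 3 of 8 at least 1.2-fold lower, with CCT2 lowest at 0.794, and a median log2 ratio of -0.21, beside -0.0023 for the 34 proteasome members; the difference between these complexes was not tested.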

How the data were processed

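Cells were profiled on the 10x Genomics Chromium platform with 3′ chemistry, per the labels' protocols. Cell Ranger, Seurat and the build hg19 stand in the submitters' processing notes, while annotation, strand setting and cell filters are not given in the sources used here. Values are natural log, as the authors deposited them, and on the linear scale they summed to 10000 per cell. A cell's lowest linear value above 0 was read as 1 UMI; 100% of values were then whole multiples within 1e-06. UMIs were summed per library and scaled to CPM, so no count model was fitted. Ratios have Clopper-Pearson intervals, CPM exact Poisson intervals, and the core to regulatory quotient a normal-approximation interval on the log scale, each at 95%. Coverage was tested for the ratio intervals alone. The simulated counts followed the Poisson model that those intervals assume, so spread between cells was not part of that test. Intervals cover counting error only. Phases were called in thinned cells with scanpy 1.11.5 (Python 3.11.15, numpy 2.4.6, scipy 1.17.1). Doublets were not called, no cell filter was added, and 0 columns lacked a sample. Members and lists were chosen with earlier results of these data known. The rule for named genes took every member, up to 2 genes at each end of every other list, and the inducible subunits; other genes, and members singled out, were named after their values were seen. GENCODE 29 names 28 pseudogenes of 9 members, PSMC1, PSMA6, PSMA2.1 and PSMD10 among them, and none has a row in the table, so shared reads make these levels uncertain. Protein sequences were not used here, and the list of shuttle receptor genes is not reported here.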

Additional observations from a re-analysis of the deposited data

Results flagged for a closer look

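The ratio of labelled treated to labelled untreated lay on opposite sides of 1 in cells called S and cells called G2/M. For the summed core particle it was 1.03 in cells called S and 0.923 in cells called G2/M, and for the summed regulatory particle 1.103 and 0.932. With 1 library a group this difference between phases was not tested, and the phases were called from the same cells.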

How the results depend on the processing

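No paired analysis was possible because each group had 1 library, and for the same reason no library could be left out. Of 107 values recomputed under alternatives, 69 stayed within the tolerance of the main value (its counting interval, 5% for the spread between cells, 1.5 times for a count). Another 33 moved beyond it, and 5, all summed ratios, crossed 1. The cause was not tested. Medians that changed sign are not among the 5. The core median, -0.027 in the main setting, was above 0 in cells called G1 and S, with 7000 to 12000 UMIs, and without PSMA7 and PSMD8. The regulatory median, 0.0059 in the main setting, was below 0 in cells called G2/M. It was also below 0 without PSMD5, PSMD9 and PSMD10, and without PSMA7 and PSMD8. The alternatives without shared barcodes, with 7000 to 12000 UMIs, without PSMA7 and PSMD8, and with phases in thinned cells were chosen after seeing the data. Cells called G1, S and G2/M gave 0, 0 and 9 members at least 1.2-fold lower (0 over all cells), 7, 7 and 1 higher (3 over all cells), core medians of 0.080, 0.050 and -0.075 on the log2 scale, regulatory medians of 0.14, 0.16 and -0.15, summed core ratios of 1.06, 1.03 and 0.923, summed regulatory ratios of 1.08, 1.103 and 0.932, and core over regulatory quotients of 0.976, 0.935 and 0.991. Cells of 7000 to 12000 UMIs gave medians of 0.045 and 0.13, sums of 1.01 and 1.07 and a quotient of 0.941; the same window stood at 1.07 for the regulatory particle against 1.09 in the middle group of 3 by depth. Thinning gave sums of 0.986 and 1.04 and a quotient of 0.951, and in cells called S sums of 1.04 and 1.12. Without PSMA7 and PSMD8 the sums were 0.991 and 0.995 and the quotient 0.996. The core sum was 0.981 with a total free of mitochondrially encoded and ribosomal protein genes, 0.980 without the 5% of cells with the most UMIs, and 1.03 in cells called G1 when each library was scored alone. A pseudocount of 0.1 per 10000 left 1 member at least 1.2-fold higher; PSMA2.1 and PSMB5 stood at 1.202 and 1.201 without it, on the threshold itself. Thinning to 8578 UMIs moved the variation beyond counting in the library labelled treated from 0.182 to 0.169. Both other scalings moved log2 ratios by at most 0.010 and left 17 members below 1. Depth limits PSMD5, PSMD9, PSMD10 and PSMA6 most, with the fewest UMIs.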
